A study of Mus musculus with 6 samples.

Results

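The non-parenchymal marker genes are 40 genes that mark the liver cells other than hepatocytes, and they were followed here in the livers of mice that lack ERα in hepatocytes and of their controls. The list holds 10 genes of Kupffer cells, 13 of sinusoidal endothelial cells, 12 of stellate cells and 5 of cholangiocytes. They were chosen by name, as known markers, among 18820 genes that the array measures with a probe set of their own. A probe set is the group of array probes that reports on one transcript, and where a gene had several, the brightest on average was used. Of the 40 genes, 39 were measured in this way, and Spp1, a secreted phosphoprotein of bile duct cells, had no such probe set.

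The liver consists mainly of hepatocytes, the parenchymal cells, and the remaining cells line its sinusoids and ducts. Kupffer cells are the resident macrophages that clear particles and old blood cells from the portal blood. Sinusoidal endothelial cells form a fenestrated lining that takes up waste molecules through scavenger receptors, and stellate cells between that lining and the hepatocytes store vitamin A and lay down extracellular matrix when they are activated. Cholangiocytes line the bile ducts.

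Liver RNA was measured in 3 CT and 3 LERKO mice, all female on the C57BL/6J background, with 1 array per mouse. CT mice were homozygous for floxed ERα alleles (ERα fl/fl). LERKO mice had the same alleles and also the cre recombinase driven by the albumin promoter (Alb-cre/ERα fl/fl), so cre and the loss of ERα cannot be told apart. The albumin promoter is a hepatocyte promoter and, by the study's account, is not used by the non-parenchymal cells. The age of these 6 mice is not given in the sources used here. The labels call the replicates biological, which was read here as 1 mouse to an array.

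Esr1, which encodes ERα, was lower in LERKO than in CT livers on every array. Its RMA signal, a background-corrected and quantile-normalized log2 signal, was 8.45, 8.78 and 8.29 in the CT mice and 6.75, 7.06 and 6.77 in the LERKO mice. The log2 difference was -1.65 (SE 0.15, adjusted p = 0.149 from limma), and the adjusted p was 0.0409 where a signal of 100 was required on all 6 arrays. Between arrays the correlation was 0.985 to 0.991, and 9452 to 9865 probe sets reached a signal of 100 on an array. A pair of arrays carried genes of other organs. In CT replicate 3, Ctrb1 of the pancreas was at 9.08 and Ckm of skeletal muscle at 8.33, against at most 3.55 and 6.12 on the other arrays. The same array was the highest for 9 of 10 genes of squamous and gall bladder epithelium, with the keratin Krt4 at 9.64 against at most 3.06. In LERKO replicate 2 Star of the adrenal gland was at 10.33 against at most 4.48.

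No non-parenchymal marker gene was told apart between CT and LERKO livers after adjustment, and the gene with the lowest level in LERKO relative to CT was Acta2, the smooth muscle actin of activated stellate cells. The study removed probe sets by a signal of 100, in words that can be read in more than one way. They were read here as asking for 100 or more on at least 1 array, which 31 of the 39 measured genes met, while 25 met it on all 6 arrays. By limma, 0 of the 31 passed an adjusted p of 0.05, and 0 of all 10633 probe sets kept did (0%). With a signal of 100 required on all 6 arrays, 0 of the 25 marker genes and 3 probe sets in all passed. At an unadjusted p under 0.05, 1 of the 31 was lower in LERKO (Acta2) and 0 were higher, against 6.98% of all probe sets in either direction and 4.0% in the lower direction. A count of 1 is near the background share and is no result about the marker genes. Of the 31 genes, 14 had a higher and 17 a lower mean in LERKO, with a median log2 difference of -0.01, and the median over all probe sets kept was also -0.01. Over all 39 genes, 17 had a higher and 22 a lower mean, and the median was -0.02. In bulk RNA, fewer cells of a type and less RNA per cell cannot be told apart.

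The precision of these differences varied with the cell type. For 21 of the 31 genes, the 95% confidence interval of the difference lay within 1.5-fold in both directions, which was the case for 12 of 13 endothelial, 5 of 9 stellate, 4 of 8 Kupffer and 0 of 1 cholangiocyte genes. Over all probe sets kept this share was 85.3%. The median SD within a group was 0.19 (log2) for the marker genes and 0.12 for all probe sets kept. By cell type the median SD was 0.26 for Kupffer, 0.14 for endothelial and 0.21 for stellate genes, and it was 0.26 for Sox9, the cholangiocyte gene kept. The endothelial genes were thus measured with about the spread of an average probe set, and the Kupffer, stellate and cholangiocyte genes with more.

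**Figure D1:**
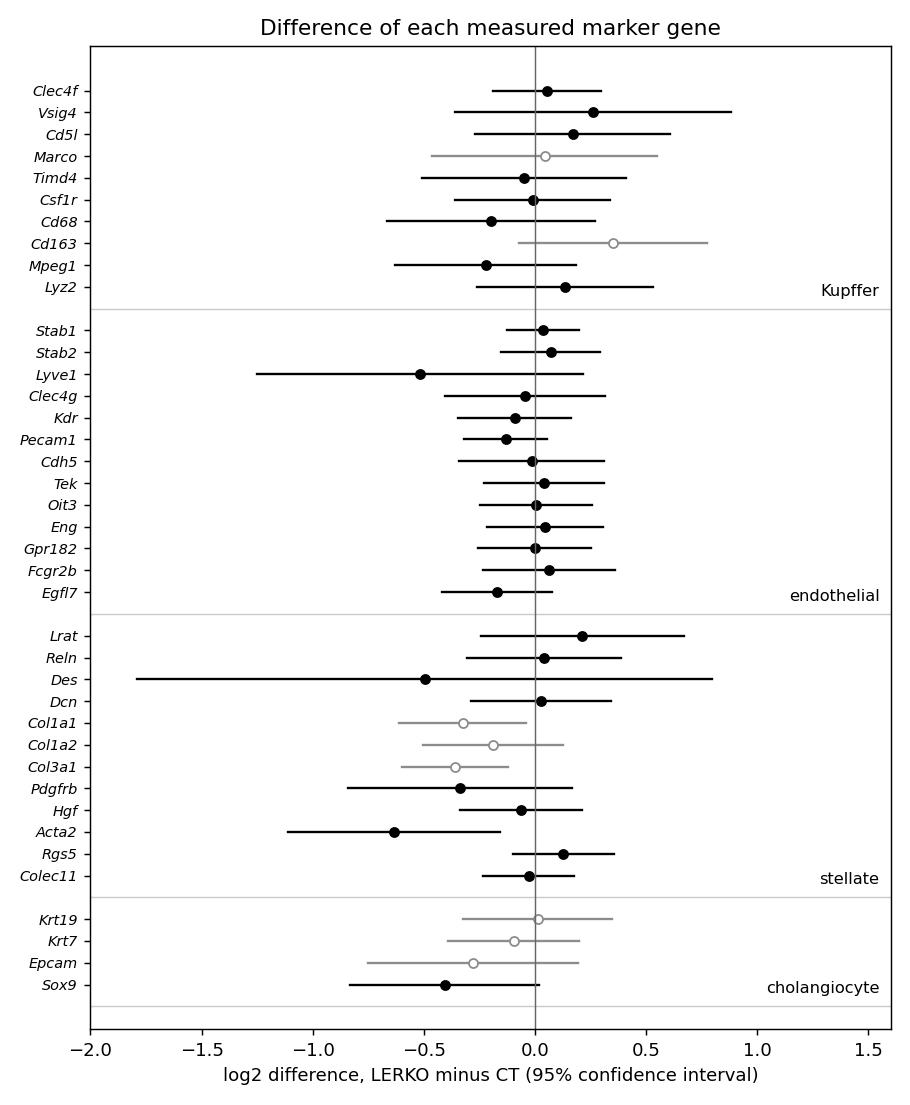
Difference of each of the 39 measured marker genes between LERKO and CT livers (log2, LERKO minus CT, 3 mice per group), with 95% confidence intervals from limma; black filled points are the 31 genes kept by the signal filter, and grey open points are the 8 genes below a signal of 100 on all arrays, from the fit without a filter. The intervals of Acta2, Col1a1 and Col3a1 lie wholly below 0, and all others include 0.

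Kupffer cell genes lay on both sides of 0. Clec4f, a lectin found on mouse Kupffer cells and hardly elsewhere, had signals of 9.46, 9.19 and 9.49 in CT and of 9.41, 9.53 and 9.37 in LERKO mice. The groups overlapped, and the log2 difference was 0.05 (95% confidence interval -0.19 to 0.30, adjusted p = 0.924 from limma). Vsig4, a complement receptor of resident macrophages, had the highest difference of the Kupffer genes kept, at 0.26 (95% confidence interval -0.36 to 0.88). Its signals were 10.19, 9.50 and 10.60 in CT and 10.37, 10.46 and 10.25 in LERKO mice, so that CT mice held both the lowest and the highest value. Mpeg1, a pore-forming protein of macrophages, had the lowest difference, at -0.22 (95% confidence interval -0.63 to 0.19).

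Other Kupffer genes describe scavenging and identity. The signal of Cd5l, a secreted protein of tissue macrophages, was 8.12 to 8.67 in CT and 8.41 to 8.85 in LERKO livers, and that of Timd4, a receptor for dying cells on long-lived Kupffer cells, was 6.40 to 7.10 and 6.71 to 6.91. Csf1r, the receptor for the growth factor that macrophages depend on, was at 8.33 to 8.84 in CT and 8.53 to 8.75 in LERKO livers. Lyz2, the lysozyme of myeloid cells, was at 9.33 to 9.97 and 9.67 to 9.89, and Cd68, a lysosomal protein of macrophages, at 7.42 to 8.0 and 7.45 to 7.90. For each of these genes the ranges overlapped. Marco and Cd163, both scavenger receptors, stayed below a signal of 100 on all arrays. Cd163 was at 5.80, 5.32 and 5.92 in CT and at 6.05, 6.18 and 5.86 in LERKO mice. Only LERKO replicate 3 lay within the CT range, and without a filter the difference was 0.35 (unadjusted p = 0.0907, adjusted p = 0.944 from limma). Of 20 further macrophage genes, 16 were kept, of which 4 had a higher and 12 a lower mean in LERKO, and 0 had an unadjusted p under 0.05. The smallest p values of that list belonged to Id3, a transcriptional inhibitor that many liver cells express, with -0.61 (adjusted p = 0.703), Irf8, a myeloid transcription factor, with -0.22, and Axl, a receptor for dying cells, with -0.23. For Id3, CT replicate 2 was at 7.49 and the other mice at 6.24 to 7.12. Id3 met the signal filter through 2 CT arrays only, so its place among the genes kept favoured a lower value in LERKO.

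The Kupffer genes varied together from mouse to mouse, and the lowest mouse was a control. CT replicate 2 had the lowest signal of the 6 mice for 7 of the 8 Kupffer genes kept, and for 16.4% of all probe sets kept. Relative to the mean of the other mice, its median over these genes was -0.44 on the log2 scale, against 0.04 over all probe sets kept. Averaged over all 10 measured Kupffer genes and set against the 6-mouse average, the level was 0.12, -0.32 and 0.13 in CT and 0.08, 0.14 and -0.14 in LERKO mice. CT replicate 2 thus stood below all other mice. In the list of further macrophage genes CT replicate 2 was the lowest mouse for 8 of the 16 kept. It was also the lowest for 8 of the 13 endothelial genes. The mean over 11 hepatocyte genes was highest in the same mouse, at 0.06 above the mean of the 6 mice. The mean over all probe sets kept was also highest there, at 0.03. Without CT replicate 2 the median difference of the Kupffer genes kept went from 0.02 to -0.10, Clec4f from 0.05 to -0.04 and Vsig4 from 0.26 to -0.03.

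**Figure D2:**
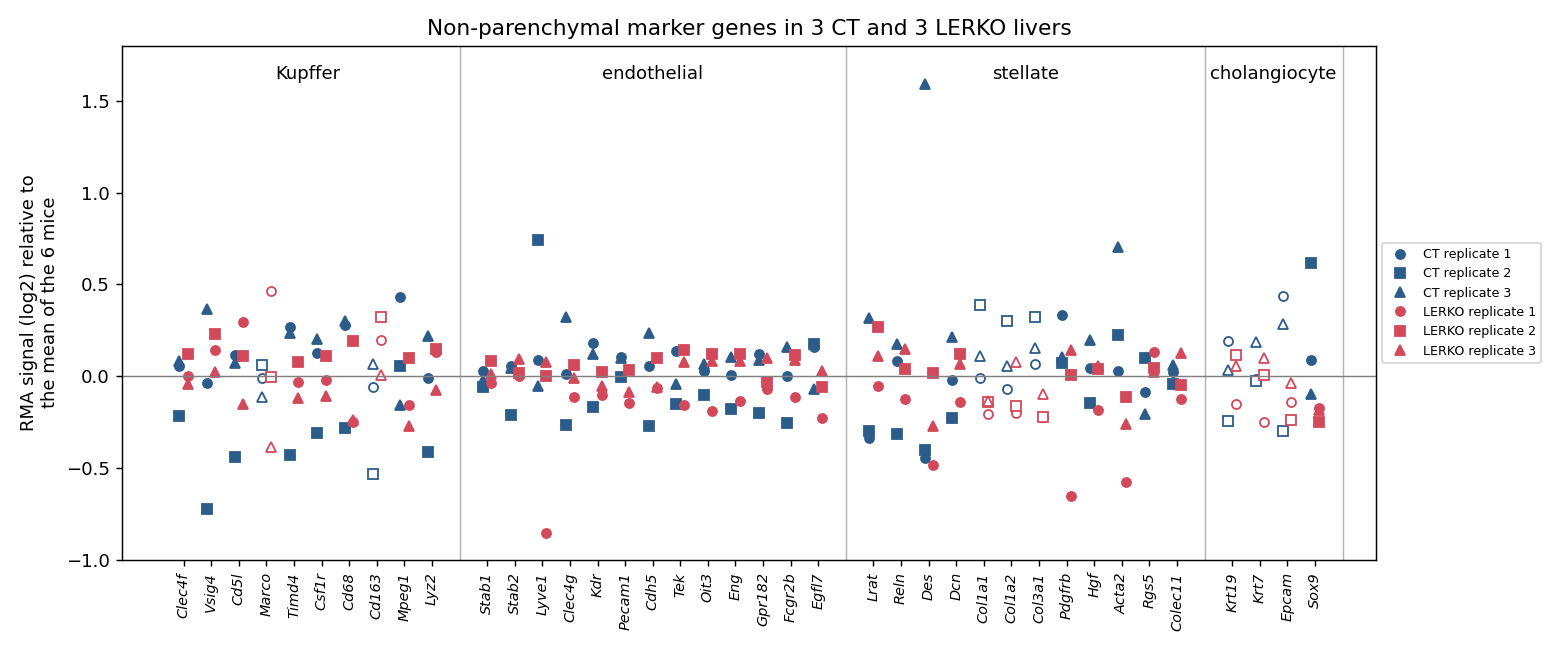
RMA signal (log2) of the 39 measured marker genes in each mouse, relative to the mean of the 6 mice, grouped by cell type; colours stand for CT and LERKO, shapes for the replicate, and open symbols for genes below a signal of 100 on all arrays. CT replicate 2 lies at the bottom for most Kupffer genes, CT replicate 3 at the top for Des and Acta2, and LERKO replicate 1 at the bottom for Lyve1, Pdgfrb and Acta2.

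Sinusoidal endothelial genes lay on both sides of 0. All 13 were kept, 6 with a higher and 7 with a lower mean in LERKO, and the median log2 difference was -0.00193. Stab2, a scavenger receptor that takes up hyaluronan, had signals of 8.83, 8.57 and 8.82 in CT and of 8.78, 8.79 and 8.87 in LERKO mice. The groups overlapped, and the difference was 0.07 (95% confidence interval -0.15 to 0.29, adjusted p = 0.876 from limma). For its relative Stab1 the difference was 0.04 (95% confidence interval -0.13 to 0.20). Gpr182, a receptor of sinusoidal endothelium that scavenges chemokines, had -0.00193 and Oit3 0.00558. The inhibitory Fc receptor Fcgr2b, which clears immune complexes in this cell type, had 0.06.

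Genes that endothelial cells of all vessels use gave similar values. Cdh5, the cadherin of endothelial junctions, had a log2 difference of -0.02, Kdr, the main receptor for VEGF, -0.09, and Pecam1, an adhesion molecule, -0.13 (95% confidence interval -0.32 to 0.05). Tek, the receptor for angiopoietins, had 0.04, Eng, a co-receptor for TGF-β ligands, 0.04, and Egfl7, a secreted endothelial protein, -0.17 (95% confidence interval -0.42 to 0.07). The lectin Clec4g had -0.04 by the probe set used and -0.08 by its other, dim probe set, which lay between 3.09 and 3.55.

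Lyve1, a hyaluronan receptor, was the endothelial gene with the largest difference. Its signals were 7.24, 7.89 and 7.09 in CT and 6.30, 7.15 and 7.22 in LERKO mice. The value of LERKO replicate 1 was the lowest, that of CT replicate 2 the highest, and the other mice of both groups lay between 7.09 and 7.24. The log2 difference was -0.52 (95% confidence interval -1.25 to 0.22, adjusted p = 0.758 from limma) and -0.22 without LERKO replicate 1. Of 20 further endothelial genes, 14 were kept, 7 with a higher and 7 with a lower mean in LERKO, and 0 had an unadjusted p under 0.05. Among these, Aqp1, a water channel, had 0.18, Flt1, a VEGF receptor, -0.13, and Bmp2, a signal to hepatocytes that raises hepcidin, 0.16.

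Stellate cell genes are ordered here by role. The genes of the quiescent, vitamin A storing cell lay on both sides of 0. Lrat, which esterifies retinol for storage, had signals of 8.13, 8.17 and 8.79 in CT and of 8.41, 8.74 and 8.58 in LERKO mice, with overlap and a log2 difference of 0.21 (95% confidence interval -0.24 to 0.67, adjusted p = 0.822 from limma). With 1 array left out, the difference of Lrat ranged from 0.10 without CT replicate 1 to 0.43 without CT replicate 3. In the latter fit its unadjusted p was 0.00928 from limma, where 11.2% of all probe sets had one under 0.05. Reln, a secreted glycoprotein, had 0.04, Hgf, a growth factor for hepatocytes, -0.06, Colec11, a collectin, -0.03, and Dcn, a small matrix proteoglycan, 0.03. The pericyte gene Rgs5 had 0.13. Pdgfrb, the receptor for PDGF, had signals of 7.36, 7.09 and 7.12 in CT and of 6.37, 7.03 and 7.16 in LERKO mice. LERKO replicate 1 alone lay far below the rest, and the difference of Pdgfrb was -0.34 (95% confidence interval -0.84 to 0.16), or -0.10 without that array.

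Acta2, the smooth muscle actin that marks activated stellate cells and vessel walls, was the gene with the smallest p of all 31. Its signals were 6.91, 7.11 and 7.59 in CT and 6.31, 6.77 and 6.62 in LERKO mice, so the groups did not overlap and LERKO was the lower one. The log2 difference was -0.63 (SE 0.20, 95% confidence interval -1.11 to -0.16, unadjusted p = 0.0166, adjusted p = 0.703 from limma). Without CT replicate 3 it was -0.44 (unadjusted p = 0.0299), and without LERKO replicate 1 it was -0.50 (unadjusted p = 0.0545).

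The fibrillar collagens of the list lay below a signal of 100 on all arrays and were tested in the fit without a filter. Col1a1, a chain of type I collagen, had signals of 5.75, 6.15 and 5.87 in CT and of 5.55, 5.62 and 5.62 in LERKO mice. Col3a1, the chain of type III collagen, had 5.86, 6.11 and 5.95 in CT and 5.57, 5.57 and 5.69 in LERKO mice. For both collagens the highest LERKO mouse was under the lowest CT mouse. The log2 difference was -0.33 for Col1a1 (95% confidence interval -0.61 to -0.04, unadjusted p = 0.0319) and -0.36 for Col3a1 (95% confidence interval -0.60 to -0.12, unadjusted p = 0.00957), and both had an adjusted p of 0.944 from limma. Col1a2, the other chain of type I collagen, had 5.41, 5.78 and 5.54 in CT and 5.28, 5.32 and 5.55 in LERKO mice, with overlap and a difference of -0.19. In that fit 3 of the 39 genes, Acta2, Col1a1 and Col3a1, had an unadjusted p under 0.05, all lower, against 2.53% of the whole table in that direction.

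Over all 39 genes, 4 had their LERKO values wholly under their CT values (Acta2, Col1a1, Col3a1 and Sox9) and 0 had them wholly above. In the whole table of 35556 probe sets the mice did not overlap for 10.3%, and LERKO was the lower group for 4.80%.

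Des, the intermediate filament of stellate and muscle cells, followed a single mouse. Its signal was 6.28, 6.32 and 8.32 in CT and 6.24, 6.74 and 6.45 in LERKO mice. CT replicate 3, the array with the muscle genes, was far above the rest and LERKO replicate 2 was next, as it was for Ckm. The difference of Des was -0.49 (95% confidence interval -1.79 to 0.80), and 0.18 without CT replicate 3. Acta1, the actin of skeletal muscle, was at 8.49 in CT replicate 3, at 6.25 in LERKO replicate 2 and at 4.27 to 5.16 elsewhere. The mean over 10 measured muscle genes was 1.89 above the mean of the 6 mice in CT replicate 3 and 0.39 above it in LERKO replicate 2. Acta2 was also highest in CT replicate 3, while Col1a1 and Col3a1 were highest in CT replicate 2. The part of muscle and other organs in the level of Acta2 was not tested.

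Among 20 further stellate and mesenchymal genes, 19 were measured and 10 kept, of which 2 had a higher and 8 a lower mean in LERKO. At an unadjusted p under 0.05, 2 of the 10 were lower and 0 higher, against 4.0% of all probe sets kept in the lower direction. After adjustment 0 passed. Tcf21, a transcription factor of mesenchymal cells, was at 6.89, 6.52 and 6.91 in CT and at 6.23, 6.33 and 6.51 in LERKO mice, with a log2 difference of -0.42 (SE 0.13, adjusted p = 0.703 from limma). Vim, an intermediate filament of mesenchymal cells, was at 9.85, 9.86 and 9.89 in CT and at 9.22, 9.66 and 9.62 in LERKO mice, with a difference of -0.36 (SE 0.13, adjusted p = 0.703). For both, the LERKO mice lay below the CT mice. LERKO replicate 1 had the lowest Vim signal, and without that array the difference of Vim was -0.22. Lhx2, which restrains stellate cell activation, had -0.19 with overlap. Tcf21 and Lhx2 each met the signal filter through 2 CT arrays only, which favoured a lower value in LERKO among the genes kept. Tagln, a calponin-like protein of contractile cells, is named after its values were seen. It lay below a signal of 100 at 5.39, 5.61 and 5.46 in CT and at 4.94, 5.23 and 5.08 in LERKO mice, again without overlap. LERKO values wholly below the CT values were found for 3 of the 19 genes measured, against 4.80% of the whole table. In LERKO replicate 1 the signal was the lowest of the 6 mice for 13 of the 19 genes and for 8 of the 12 stellate marker genes measured. Among the genes kept these counts were 8 of 10 and 5 of 9, against 20.8% of all probe sets kept.

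**Figure D3:**
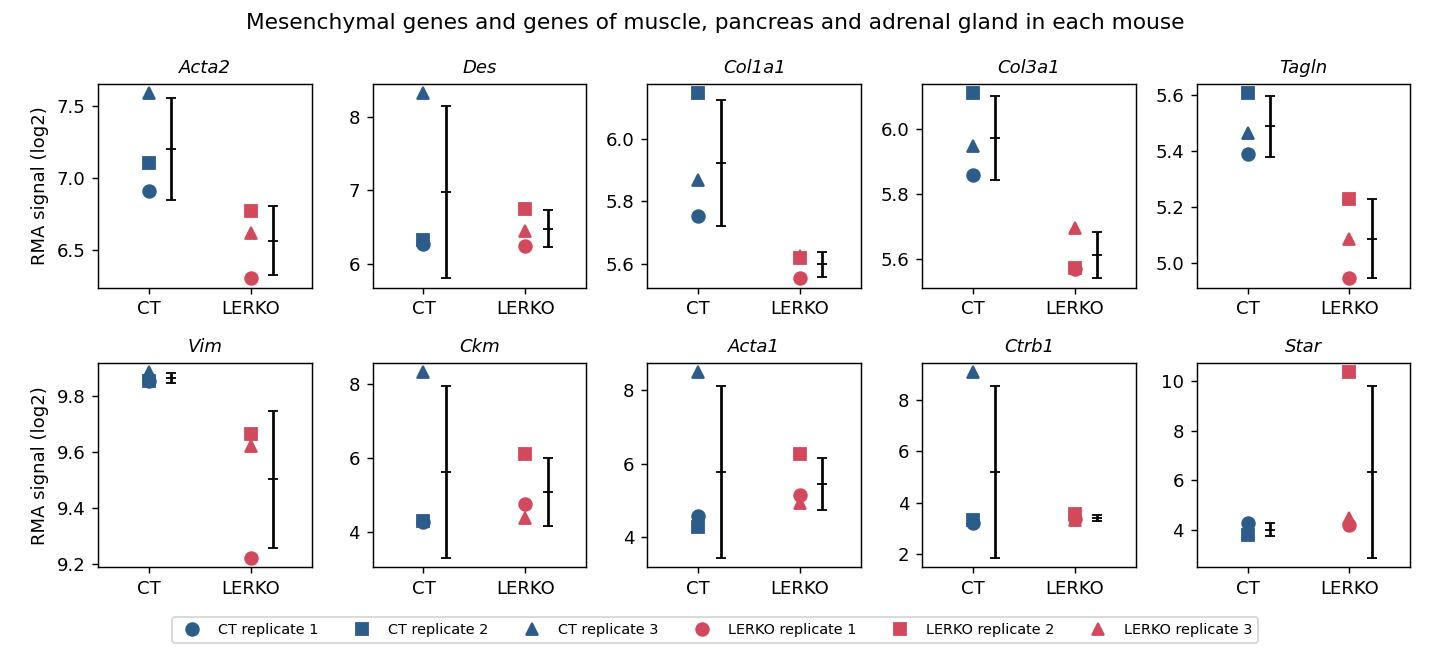
RMA signal (log2, a scale of its own in each panel) in each mouse of Acta2, Des, Col1a1 and Col3a1, of Tagln and Vim, and of muscle (Ckm, Acta1), pancreas (Ctrb1) and adrenal (Star) genes, with each group's mean and SD (3 mice). For Acta2, Col1a1, Col3a1, Tagln and Vim the groups do not overlap and LERKO is lower, while Des follows the muscle genes in CT replicate 3. The panels show selected genes, Tagln among them after its values were seen, and do not stand for their lists. LERKO lay wholly below CT for 3 of 12 stellate marker genes and 3 of 19 further genes measured. This was the case for 4.80% of all 35556 probe sets. The mean was higher in LERKO for 4 of the 12 and 4 of the 19, which are not shown.

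Because ERα is a transcription factor, the promoters of the marker genes were searched for its binding motif. By the study's account, non-parenchymal cells do not use the promoter that drives cre. The search is therefore a description and cannot decide where a difference comes from. RefSeq windows of 250 bases before and 50 bases after the gene's start (GRCm38.p6) were given for 29 of the 40 genes, and not for Csf1r, Lyve1, Pecam1, Cdh5, Oit3, Gpr182, Dcn, Col1a1, Pdgfrb, Krt19 and Sox9. The letters AGGTCA, each arm of the estrogen response element, were found on either strand in the windows of 6 genes, Clec4f, Egfl7, Fcgr2b, Krt7, Stab2 and Timd4, and in 16.3% of all 32851 windows. The pair GGTCA and TGACC with 3 bases between was in 0 windows of the marker genes and in 0.07% of all windows. Neither motif was in the windows of Acta2 and Col3a1, the genes with a window whose LERKO mice lay below the CT mice with an unadjusted p under 0.05, which are therefore shown. Capitals mark TATAA on either strand, a core promoter motif that 24.9% of all windows hold. On the gene's strand it begins at position 10 from the gene's start in Acta2, so after the start, and at -117 in Col3a1. Whether these stretches act in the promoter was not tested. The window of Acta2 is chr19:34255324-34255623 on the minus strand, and that of Col3a1 is chr1:45311288-45311587 on the plus strand.
Acta2: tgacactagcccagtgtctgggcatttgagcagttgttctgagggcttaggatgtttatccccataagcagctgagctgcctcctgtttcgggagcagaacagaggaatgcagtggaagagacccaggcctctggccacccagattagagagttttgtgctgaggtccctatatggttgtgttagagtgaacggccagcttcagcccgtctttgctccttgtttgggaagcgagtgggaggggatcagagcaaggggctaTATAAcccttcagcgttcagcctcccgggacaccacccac
Col3a1: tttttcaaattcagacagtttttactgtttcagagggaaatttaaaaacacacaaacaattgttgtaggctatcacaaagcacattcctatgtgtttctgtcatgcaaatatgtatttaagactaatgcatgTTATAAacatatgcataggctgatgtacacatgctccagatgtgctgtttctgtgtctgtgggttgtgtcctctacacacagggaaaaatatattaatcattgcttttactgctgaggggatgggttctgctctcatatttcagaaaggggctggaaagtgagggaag

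Cholangiocyte genes were mostly under the signal filter. Krt19 and Krt7, keratins of the duct epithelium, and Epcam, an epithelial adhesion molecule, stayed below a signal of 100 on all arrays. Krt19 was at 4.25, 3.81 and 4.09 in CT and at 3.90, 4.17 and 4.11 in LERKO mice, Krt7 at 4.50 to 4.71 and 4.28 to 4.63, and Epcam at 4.24 to 4.98 and 4.30 to 4.50. For each the groups overlapped.

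Sox9, a transcription factor of ducts and of periportal hepatocytes, was the only cholangiocyte gene kept, and through 2 CT arrays only, which favoured a lower value in LERKO. Its signals were 6.79, 7.32 and 6.60 in CT and 6.52, 6.45 and 6.51 in LERKO mice. The groups did not overlap, with CT replicate 3 and LERKO replicate 1 next to each other. CT replicate 3, the array with the squamous epithelial genes, had the lowest Sox9 signal of the CT mice. The part of other epithelia in the level of Sox9 was not tested. The log2 difference was -0.41 (95% confidence interval -0.83 to 0.02, unadjusted p = 0.0587, adjusted p = 0.703 from limma), and it was -0.20 without CT replicate 2 and -0.56 without CT replicate 3. Of 15 further biliary genes 13 were measured and 3 kept, all with a lower mean in LERKO and 0 with an unadjusted p under 0.05. Of these, Prom1 met the signal filter through CT replicate 2 alone, which favoured a lower value in LERKO. The cadherin Cdh1, which periportal hepatocytes also express, had -0.48, with CT replicate 2 at 8.23 and the other mice at 6.90 to 7.31. Prom1, a membrane glycoprotein of progenitor cells, had -0.21 and Pkhd1, a protein of the primary cilium, -0.08.

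Set side by side, the 4 lists had medians near 0 or below it. Over the measured genes the median log2 difference was 0.05 for Kupffer, -0.00193 for endothelial, -0.13 for stellate and -0.19 for cholangiocyte genes, against 0.00374 for the whole table. Over the genes kept by the filter it was 0.02, -0.00193 and -0.03, with Sox9 alone for cholangiocytes. The stellate median thus lay further below 0 with the 3 collagens than without them. For the first 3 lists the medians of the genes kept were 0.10, 0.04 and 0.06 without CT replicate 3 and -0.10, -0.10 and -0.11 without CT replicate 2, so their sign depended on single control mice. Against the 6-mouse average, the endothelial list was at 0.08, -0.07 and 0.08 in CT and -0.17, 0.06 and 0.03 in LERKO mice. The stellate list was at -0.03, -0.00303 and 0.29 in CT and -0.24, -0.01 and -0.00253 in LERKO mice. For both lists the groups overlapped, with LERKO replicate 1 the lowest mouse by the mean. Gene by gene, CT replicate 2 was the lowest mouse for 8 of the 13 endothelial genes and LERKO replicate 1 for 5. The 4 measured cholangiocyte genes were at 0.18, 0.01 and 0.10 in CT and -0.18, -0.09 and -0.02 in LERKO mice, without overlap. Only Sox9 was near a signal of 100 (6.64 on the log2 scale), and it met the filter through CT arrays only. Krt19, Krt7 and Epcam lay far below, between 3.81 and 4.98, with differences of 0.01, -0.10 and -0.28. How often the mean of a list separates the groups in the whole table was not computed.

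**Figure D4:**
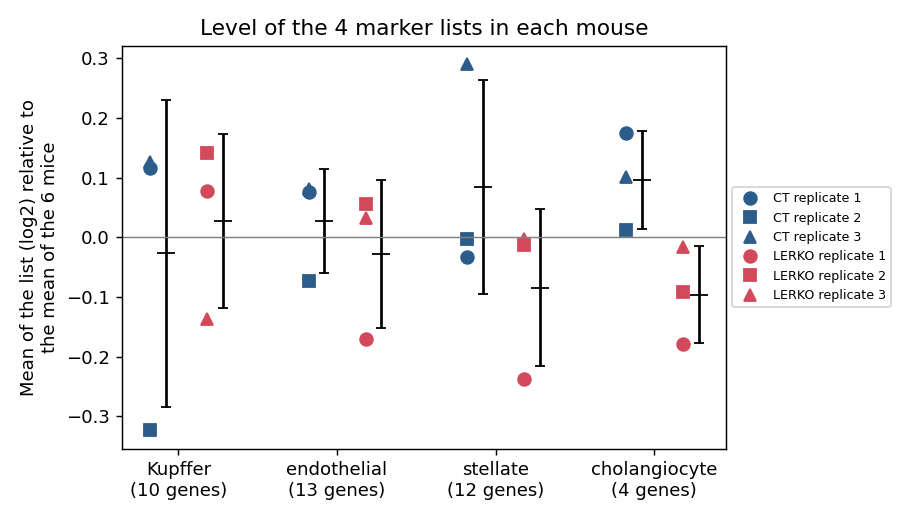
Mean over the measured genes of each cell type in each mouse (log2, relative to the mean of the 6 mice), with each group's mean and SD (3 mice) beside the points. CT replicate 2 is the lowest mouse for Kupffer genes, at -0.32, CT replicate 3 the highest for stellate genes, at 0.29, and LERKO replicate 1 the lowest for endothelial and stellate genes.

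Markers of blood cells were low. Of 13 measured lymphocyte and natural killer cell genes 12, and of 9 measured neutrophil genes all 9, stayed below a signal of 100 on all arrays. The exception was Cd79b of B cells, at 6.78 in LERKO replicate 1 and at 6.05 to 6.43 elsewhere. Alas2, the heme synthesis enzyme of red cell precursors, had signals of 7.96, 7.61 and 7.43 in CT and of 7.23, 7.34 and 7.20 in LERKO mice. The LERKO mice lay below the CT mice, and the difference was -0.41 (SE 0.14, unadjusted p = 0.0242, adjusted p = 0.703 from limma). An unadjusted p under 0.05 in the lower direction was found for 4.0% of all probe sets kept. LERKO mice lay wholly below CT mice for 4.80% of the whole table. Of 8 red cell genes listed, 2 were measured. Slc4a1, the other one, stayed below a signal of 100 on all arrays and overlapped, with a difference of 0.17. The 11 measured hepatocyte genes reached a signal of 100 on all arrays, and the group means of that list differed by -0.02 (log2, LERKO minus CT).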

How the data were processed

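Liver RNA of 6 mice (3 CT, 3 LERKO) was hybridised to Affymetrix Mouse Gene 1.1 ST arrays, 1 per mouse. The authors deposited 1 log2 signal for each probe set and array, made with RMA in the oligo package (version not given in the sources used here) by background correction, quantile normalization and summary of probes. RMA makes total signal equal between arrays, so a level is relative to the other RNA of its array. The number of arrays limits the precision, and 3 mice against 3 cannot give an exact permutation p under 0.1.

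Of 35556 probe sets, 21218 are paired with 1 gene by the platform annotation, 1881 with several and 12457 with none. Symbols were updated through gene identifiers, of which 21185 matched RefSeq. Only probe sets with 1 gene were named. Probe sets under a signal of 100 on all arrays were removed, which is one reading of the study's filter, and the difference LERKO minus CT was fitted in limma 3.58.1 (R 4.3.3) with lmFit and eBayes, two-sided, genotype as the only term. The threshold was an adjusted p of 0.05 (Benjamini-Hochberg, 10633 probe sets). The fit was tested on simulated data. Lists are described by counts and medians, with no test.

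The members, the wider lists and the tests were chosen with earlier results of these data known. Values are given in every mouse for Esr1, for marker genes with an unadjusted p under 0.05 or a log2 difference of at least 0.5, for a defining gene of each cell type, and for others that a result turned on. From each wider list, the 3 genes of smallest p are named. As alternatives, other signal filters, probe set choices, variance models, array weights and normalizations were run, as were a replicate block and fits without single arrays. Deviations of CT and LERKO mice of the same replicate number correlated at -0.16, -0.07 and -0.14, so the numbers do not pair the mice.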

Additional observations from a re-analysis of the deposited data

How the results depend on the processing

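No marker gene passed an adjusted p of 0.05 in limma under any alternative run. All probe sets passing numbered 0, but 3 where a signal of 100 was required on all 6 arrays, 1 with an intensity trend, and 0 to 1 with 1 array left out. The count of marker genes with an unadjusted p under 0.05, 1 in the fit as reported, was 0 with a signal of 100 on all 6 arrays, where Acta2 was not tested (7.79% of all probe sets), 3 without a filter (4.89%), and 2, Acta2 and Sox9, with array weights (9.25%) or with arrays centred on hepatocyte genes (6.43%). It ranged from 0 (without LERKO replicate 1) to 5 (without CT replicate 2, or without CT replicate 3) with 1 array left out, beside 3.91%, 6.26% and 11.2% of all probe sets. Without both CT replicate 3 and LERKO replicate 2 it was 4, beside 10.8%. Marker genes with all LERKO mice below all CT mice numbered 4 (4.80% of the whole table). Leaving out arrays can only add to this count, an alternative chosen after seeing the data. It was 4 to 10 with 1 array left out, with 6 without CT replicate 3 (12.8%), 7 without LERKO replicate 3 (9.30%) and 10 without CT replicate 2 (8.75%), and 8 without both arrays (18.6%).

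Differences of single genes were followed through these runs for a selection of genes only, and among these 6 turned sign. Prom1 and Pkhd1 of the 6 belong to the further biliary genes. Whether the remaining marker genes turned sign was not examined. With 1 array left out the log2 difference ranged from -0.041 to 0.11 for Clec4f, from -0.016 to 0.12 for Stab2, from -0.035 to 0.51 for Vsig4, from -0.84 to 0.18 for Des, from -0.72 to 0.097 for Prom1 (-0.74 without both arrays) and from -0.25 to 0.12 for Pkhd1. Prom1 was at 0.021 with quantile normalization repeated. Acta2 ranged from -0.78 to -0.44. The causes were not tested. With the replicate block, which the labels' numbers do not justify, Acta2 had an unadjusted p of 0.0078, and the count of such genes was 1.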
